A study of Danio rerio with 6 samples.

Results

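Whole zebrafish embryos at 18hpf were examined for the genes that build tight junctions and gap junctions. The members were every row of the deposited count table whose gene symbol begins with *cldn* (claudins), *tjp1* to *tjp3* (ZO scaffold proteins), *ocln* or *marveld* (occludins and their relatives), *f11r*, *jam2* or *jam3* (junctional adhesion molecules), or with *cx* and a digit, *gja*, *gjb*, *gjc* or *gjd* (connexins). The rule used names only, and it found 65 genes of the 13466 in the table, namely 42 tight junction genes and 23 connexins. The embryos were *hoxb1b*-/- mutants, homozygous for the allele um197, with wildtype embryos as controls, and each genotype had 3 libraries. RNA came from pools of embryos freed of chorion and yolk, and no source says that each library had its own pool, so the p-values measure the spread between these libraries, which may be technical. *hoxb1b* encodes a paralog group 1 Hox transcription factor that acts in the early hindbrain, and the comparison asks which transcripts differ between the genotypes. No source says that mutant and wildtype embryos shared parents, so effects of genotype cannot be told apart from differences of clutch or exact stage.

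Tight junctions seal the space between neighbouring epithelial or endothelial cells. Claudins are the membrane proteins that form their strands, and the set of claudins in a cell sets which ions and molecules pass. Occludin and the MARVEL proteins lie in the same strands, the ZO proteins tie the strands to actin, and junctional adhesion molecules are immunoglobulin-type receptors beside them. Connexins assemble into gap junction channels that join the cytoplasm of adjacent cells, and in zebrafish many are named by the predicted mass of the protein. Different tissues use different members of both families, so that the levels in a whole embryo are sums over many tissues. A transcript that is lower in such RNA may come from fewer cells of a type or from less RNA per cell, and these cannot be told apart here.

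The deposited values are estimated read counts per gene, with totals between 19139322 and 29146812 per library. Counts were divided by library size after TMM normalization in edgeR, to give CPM, the counts per 1000000 counts of a library. CPM are not divided by transcript length, so levels are compared between genotypes and not between genes. Differences were tested with edgeR's quasi-likelihood test over all 12471 genes that passed its expression filter, with Benjamini-Hochberg adjustment. *hoxb1b* itself stood at 85.3, 84.2 and 83.8 CPM in mutant libraries, against 70.6, 66.4 and 70.4 CPM in wildtype libraries, so its transcript was not lower in the mutants (edgeR log2 fold change 0.29, adjusted p = 8.71e-09) and its level does not check the genotype labels. Of 119 listed marker genes of 9 cell types present in whole embryos, 102 were in the table. Every gene of the table had reads in at least 1 library, so reads of these markers do not check the tissue content.

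Of the 65 members, 56 passed the expression filter (39 of 42 tight junction genes and 17 of 23 connexins). Among the 56, 6 genes passed both criteria, a fold change above 2 and an adjusted p under 0.05, and all 6 were lower in the mutants, namely the claudins *cldn11a*, *cldn19* and *cldn1* and the connexins *cx55.5*, *cx39.9* and *cx44.1*. They are 10.7% of the members tested, against 8.36% of all tested genes called in either direction and 6.66% called lower. The number of members more than 2-fold higher was 0 (edgeR's quasi-likelihood test), where 1.7% of all tested genes were called higher. It was also 0 at an unadjusted p under 0.05 and 0 with DESeq2. Without the fold criterion, 30 of the 56 members (53.6%) had an adjusted p under 0.05, 19 lower and 11 higher, against 66.2% of all tested genes, of which 33.6% were lower and 32.6% higher. The share of members beyond 2-fold was thus close to that over all genes, and the share at an adjusted p under 0.05 was below it. Their median log2 fold change was -0.06, and that of all tested genes was -0.0034. The 3 mutant libraries all lay on one side of the 3 wildtype libraries for 33 of the 56 members (58.9%) and for 68.1% of all tested genes.

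**Figure D1:**
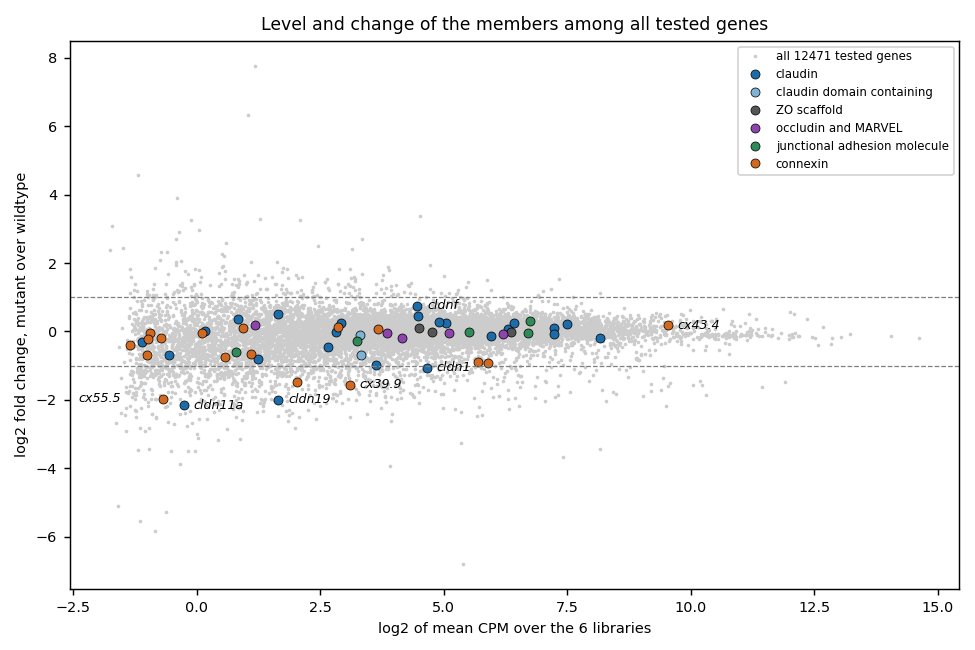
Log2 of the mean CPM over the 6 libraries (x axis) against the log2 fold change of mutant over wildtype (y axis) for all 12471 tested genes (grey) and the 56 tested members (coloured by protein group), with dashed lines at 2-fold. The members spread over the range of levels, 6 of them lie below the lower line and 0 above the upper line.

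The total output of the claudins and of the connexins hardly differed between the genotypes. The CPM of the 27 claudins summed to 1178, 1178 and 1174 in mutant libraries, against 1154, 1189 and 1177 in wildtype libraries, and these ranges overlap. The sum of the 23 connexins was 904 ± 9.55 CPM in mutants and 890 ± 6.62 CPM in wildtype (SD, n = 3 each). Most of the connexin counts came from a single gene, *cx43.4*, which held 87.3% ± 0.122 of them in mutants and 77.9% ± 0.183 in wildtype (SD, n = 3 each). Without *cx43.4*, the other 22 connexins summed to 115, 114 and 114 CPM in mutant libraries, against 197, 199 and 195 CPM in wildtype libraries. The mutant sums of these 22 genes were all far below the wildtype sums, and *cx30.3* and *cx43* made up most of the gap.

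Among the 24 claudins tested, 9 were lower and 9 were higher in the mutants at an adjusted p under 0.05, and 6 did not pass the test. These calls are 75% of the claudins tested, and 66.2% of all tested genes were called (33.6% lower and 32.6% higher). Their median log2 fold change was 0.01, with values between -2.16 for *cldn11a* and 0.75 for *cldnf*. All 3 claudins beyond 2-fold were lower (12.5%, against 8.36% of all tested genes beyond 2-fold in either direction). Over all tested genes the calls beyond 2-fold were also mostly lower (6.66% lower and 1.7% higher).

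**Figure D2:**
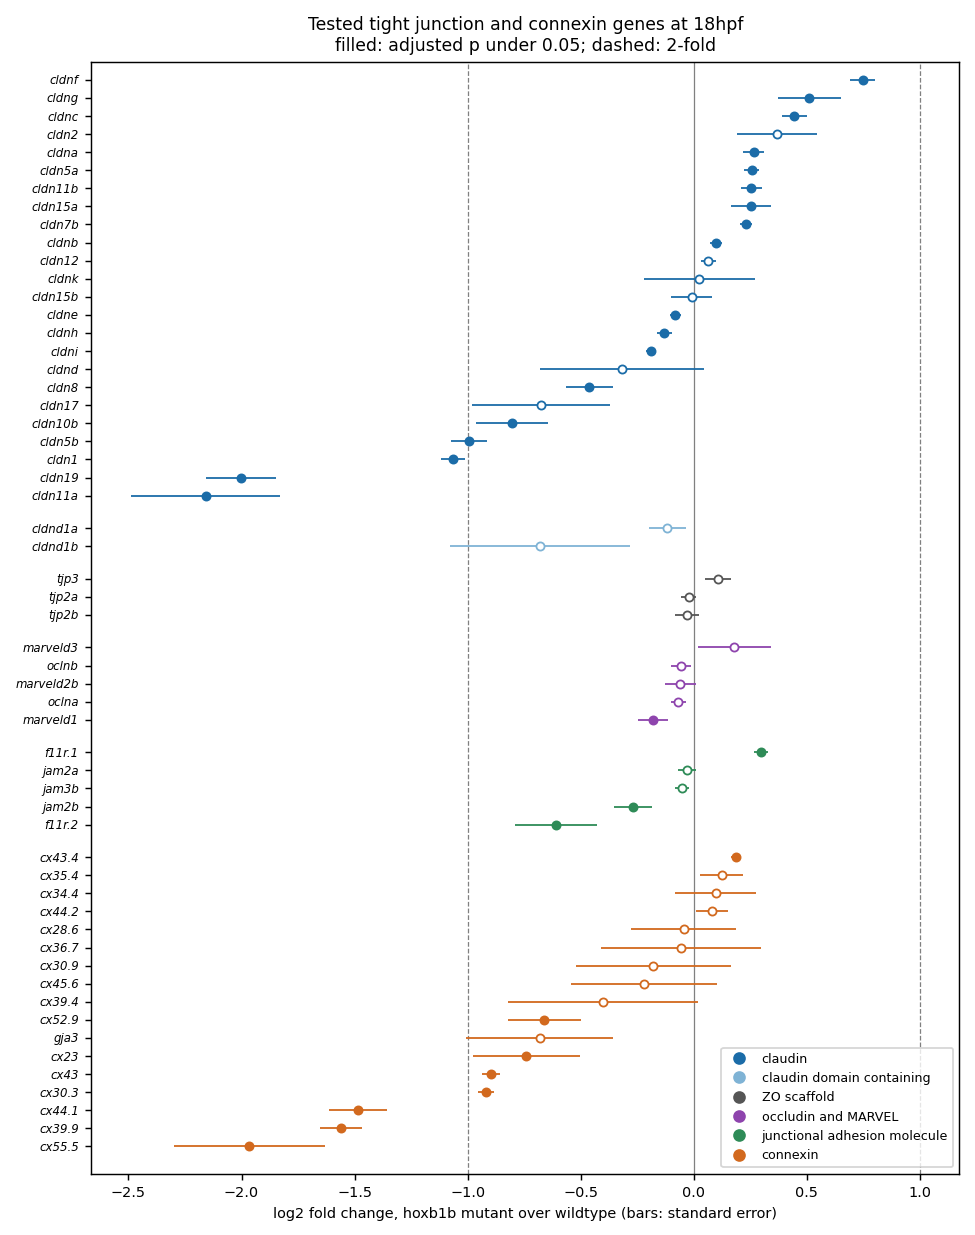
Log2 fold change of mutant over wildtype with its standard error (x axis) for each of the 56 tested members (y axis), grouped by protein family and ordered by value within each. Filled points have an adjusted p under 0.05 and dashed lines mark a 2-fold change. The largest reductions lie among claudins and connexins, while tjp2a, tjp2b, tjp3, the occludins and jam2a and jam3b lie close to 0.

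*cldn19* encodes a claudin that in mammals is known from the kidney, the retina and the sheath of peripheral nerves. Its level was 1.18, 1.21 and 1.32 CPM in mutant libraries, against 4.65, 4.72 and 5.74 CPM in wildtype libraries. All mutant values were far below all wildtype values, with 23 to 39 counts per mutant library and 107 to 112 per wildtype library. This was a 4.01-fold reduction (SE 0.15 on the log2 scale, edgeR adjusted p = 3.47e-12), and dropping any 1 library gave log2 fold changes of -2.06 to -1.91. RefSeq also lists the name *cldn19* for a second gene, *cldn1*, and both are given here under their deposited names.

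The row *cldn1* is named after the claudin that in mammals is required for the barrier of the skin. It stood at 16.1, 16.9 and 15.9 CPM in mutant libraries, against 32.9, 33.5 and 35.8 CPM in wildtype libraries. The genotypes did not overlap and the libraries of each lay close together. Its reduction on the log2 scale, -1.06 (SE 0.05, edgeR adjusted p = 1.42e-16), is just past the 2-fold limit. Tested for a change larger than 2-fold, it did not pass (adjusted p = 0.666, edgeR's glmTreat), whereas the other 5 genes passed, with adjusted p between 3.79e-06 for *cldn19* and 0.0247 for *cx55.5*.

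*cldn11a* is a zebrafish copy of the mammalian claudin of myelin and of the seminiferous epithelium. It had 0.103, 0.258 and 0.473 CPM in mutant libraries, against 1.11, 1.37 and 1.69 CPM in wildtype libraries. These values rest on 2, 6 and 14 counts in mutants and 26, 31 and 33 counts in wildtype. The mutant libraries differed from one another by several fold, but the highest of them was still below the lowest wildtype library. The log2 fold change was -2.16 (SE 0.33, edgeR adjusted p = 1.70e-06), and dropping any 1 library gave -2.83 to -1.85.

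*cldn5b*, known from the endothelium of zebrafish vessels, fell just short of the 2-fold limit. Its level was 8.81, 7.62 and 8.51 CPM in mutant libraries, against 15.2, 18.1 and 16.4 CPM in wildtype libraries. The highest mutant library was well below the lowest wildtype library. The log2 fold change was -0.99 (SE 0.08, edgeR adjusted p = 5.12e-12), and it passed the limit with upper quartile scaling, with at least 10 counts required in every library, and without wildtype replicate 1 (-1.06), mutant replicate 1 (-1.03) or mutant replicate 3 (-1.02). *cldn10b* had 1.75, 1.59 and 1.86 CPM in mutant libraries, against 3.33, 3.04 and 2.72 CPM in wildtype libraries. These ranges were separate, and its log2 fold change was -0.80 (SE 0.16, edgeR adjusted p = 6.55e-05).

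The other 4 claudins that fell did so by less than 1.5-fold. *cldn8*, named after a mammalian claudin of the distal nephron, was at 5.35 ± 0.667 CPM in mutants and 7.34 ± 0.365 CPM in wildtype (SD, n = 3 each), a change of -0.46 on the log2 scale. *cldni*, the claudin with the highest CPM, stood at 269, 266 and 267 CPM in mutant libraries, against 299, 307 and 310 CPM in wildtype libraries. This reduction was small but larger than the spread between libraries (edgeR log2 fold change -0.19, SE 0.02, adjusted p = 2.78e-08). *cldnh* and *cldne* changed by -0.13 and -0.08 on the log2 scale. *cldne* is known from the enveloping layer, the outer epithelium of the early embryo, and its adjusted p of 0.0063 (edgeR) became 0.22 with total count scaling and 0.0519 with DESeq2.

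The largest rise among all members was that of *cldnf*. Its level was 27.3, 27.9 and 27.7 CPM in mutant libraries, against 16.0, 17.2 and 16.2 CPM in wildtype libraries. All mutant libraries were above all wildtype libraries, and the mutant values were almost equal. The log2 fold change was 0.75 (SE 0.05, edgeR adjusted p = 6.38e-13), or 1.68-fold, and dropping any 1 library gave 0.72 to 0.78. *cldng* followed with 0.51 (3.24, 3.96 and 3.85 CPM in mutant libraries, against 2.48, 2.60 and 2.77 CPM in wildtype libraries). *cldnc* rose by 0.45 (26.6, 25.1 and 25.3 CPM in mutant libraries, against 19.2, 18.2 and 19.1 CPM in wildtype libraries). The genotypes were separate in both genes.

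The other 6 claudins that rose had log2 fold changes between 0.10 and 0.26. They included *cldn5a*, which in zebrafish is known from the neuroepithelium that encloses the brain ventricles, with 92.4, 92.6 and 93.9 CPM in mutant libraries, against 74.6, 81.6 and 77.7 CPM in wildtype libraries. Its genotypes were separate (edgeR log2 fold change 0.26, SE 0.03, adjusted p = 9.54e-08). *cldn15a*, named after a mammalian claudin of the gut, was at 8.03, 8.01 and 8.54 CPM in mutant libraries, against 6.70, 7.45 and 6.51 CPM in wildtype libraries. Its adjusted p of 0.0141 (edgeR) was 0.0808 with DESeq2 and lost the call without mutant replicate 3 or wildtype replicate 3 (adjusted p = 0.0668 and 0.052, edgeR). *cldnb*, known from the lateral line primordium and the epidermis, rose by 0.10 on the log2 scale and *cldn7b* by 0.23. *cldna* and *cldn11b* are the remaining 2.

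Of the 6 claudins that did not pass the test, *cldn12* and *cldn15b* were well counted and lay within 0.1 of no change, and *cldnk*, a marker of myelinating glia later in development, had 18 to 40 counts per library with no resolved difference (log2 fold change 0.02, standard error 0.24). *cldn2*, *cldn17* and *cldnd* had 8 to 60 counts per library and log2 fold changes of 0.37, -0.68 and -0.32 (edgeR adjusted p = 0.069, 0.0533 and 0.45). *cldn10a*, *cldn15la* and *cldn7a* were below the expression filter, with at most 10 counts in any library.

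Several claudin genes are direct neighbours in the zebrafish genome, with no other protein-coding gene of the RefSeq annotation (assembly GRCz12tu) between them. In the run *cldne*, *cldnf*, *cldna* the first was lower (-0.08) and the others were higher (0.75 and 0.26, log2 fold changes). In the run *cldnh*, *cldnc*, *cldnb* the first was again lower (-0.13) and the others higher (0.45 and 0.10). *f11r.2* and *f11r.1*, also neighbours, differed in sign as well (-0.61 and 0.30). Neighbours *cldnf* and *cldna*, and *cldnc* and *cldnb*, rose together, so adjacent genes shared a direction in some cases and not in others.

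The genes found for the scaffold under the strands changed little. No row of the table had a name beginning with *tjp1*, so that gene is not covered. The 3 ZO scaffold genes did not pass the test (edgeR adjusted p between 0.108 and 0.646), where 66.2% of all tested genes did. Their log2 fold changes were -0.03 for *tjp2b*, -0.02 for *tjp2a* and 0.11 for *tjp3*. *tjp2a* had 80.3, 83.2 and 81.8 CPM in mutant libraries, against 82.7, 85.5 and 81.0 CPM in wildtype libraries, and the ranges overlap. The SE was 0.03 for *tjp2a*, 0.05 for *tjp2b* and 0.06 for *tjp3*.

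Of the 5 occludin and MARVEL genes, 1 passed the test (20%, against 66.2% of all tested genes). *marveld1* was at 17.4, 17.5 and 15.6 CPM in mutant libraries, against 17.6, 19.0 and 20.4 CPM in wildtype libraries. The groups were separate by a narrow margin, and the log2 fold change of -0.18 (SE 0.06, edgeR adjusted p = 0.0157) lost its call with DESeq2 (adjusted p = 0.099), with total count scaling (adjusted p = 0.0642) and without mutant replicate 3 or wildtype replicate 3 (adjusted p = 0.153 and 0.102, edgeR). *oclna*, which encodes occludin and had the highest CPM of these genes, stood at 75.1, 70.0 and 71.5 CPM in mutant libraries, against 76.5, 76.3 and 73.5 CPM in wildtype libraries, with a log2 fold change of -0.07 (adjusted p = 0.0764, edgeR). *oclnb*, the tricellulin gene *marveld2b* and *marveld3* had log2 fold changes of -0.06, -0.06 and 0.18, none past the test.

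Of the 5 junctional adhesion molecule genes, 1 was higher and 2 were lower (60% called, against 66.2% of all tested genes). *f11r.1*, which encodes a form of JAM-A, had 118, 122 and 118 CPM in mutant libraries, against 94.5, 102 and 95.2 CPM in wildtype libraries. Its groups were separate, with a log2 fold change of 0.30 (SE 0.03, edgeR adjusted p = 2.16e-09). *f11r.2* went the other way, with 1.39, 1.51 and 1.28 CPM in mutant libraries, against 2.18, 2.25 and 1.90 CPM in wildtype libraries (edgeR log2 fold change -0.61, SE 0.18, adjusted p = 0.0046), and this call was lost with DESeq2 (adjusted p = 0.0508). *jam2b* had 8.69 ± 0.791 CPM in mutants and 10.4 ± 0.545 CPM in wildtype (SD, n = 3 each), and its reduction lost the call without mutant replicate 3 (adjusted p = 0.0813, edgeR) and with DESeq2 (adjusted p = 0.0564). *jam2a* and *jam3b* encode the receptor pair through which zebrafish myoblasts recognise each other before they fuse. *jam2a* stood at 45.1 ± 1.47 CPM in mutants and 46.0 ± 1.51 CPM in wildtype, and *jam3b* at 103 ± 1.61 CPM in mutants and 107 ± 5.60 CPM in wildtype (SD, n = 3 each). Their log2 fold changes of -0.03 and -0.05 did not pass the test.

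The claudin domain genes *cldnd1a* and *cldnd1b* match the rule by name and are distant relatives of claudins. *cldnd1a* had overlapping values and a log2 fold change of -0.12 (adjusted p = 0.212, edgeR). *cldnd1b* was at 10.2, 8.40 and 5.64 CPM in mutant libraries, against 22.4, 13.4 and 0 CPM in wildtype libraries. Wildtype replicate 3 held an estimated 0.04 reads of it, while wildtype replicates 1 and 2 held 525 and 305. With all libraries the difference did not pass the test (log2 fold change -0.68, adjusted p = 0.134, edgeR), and without wildtype replicate 3 it was -1.20 with an adjusted p of 3.62e-07 (edgeR), so that 1 library decides this gene. Its counts are fractional, as are those of 22 of the 65 members in at least 1 library, and the values of genes that share reads with a close copy are uncertain to that extent.

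Among the 17 connexins tested, 7 were lower and 1 was higher in the mutants at an adjusted p under 0.05, and 9 did not pass the test. Their median log2 fold change was -0.40, against -0.0034 for all tested genes. This median is the value of *cx39.4*, a gene with few counts that did not pass the test (SE 0.42, edgeR adjusted p = 0.41). Beyond 2-fold were 3 of them (17.6%), where 8.36% of all tested genes were beyond 2-fold. At an adjusted p under 0.05, 47.1% of the connexins were called, against 66.2% of all tested genes (33.6% lower and 32.6% higher).

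*cx39.9* (*gja2* in RefSeq) forms gap junctions in developing zebrafish skeletal muscle. It was at 4.43, 4.05 and 4.49 CPM in mutant libraries, against 11.6, 13.2 and 13.7 CPM in wildtype libraries. No mutant library came near a wildtype library, with a log2 fold change of -1.56 (SE 0.09, edgeR adjusted p = 9.64e-15), or a 2.95-fold reduction. Most skeletal muscle markers moved with it, as 14 of the 18 tested were lower, 11 of them by more than 2-fold. Of all tested genes, 33.6% were lower, and 6.66% were lower by more than 2-fold. The 4 markers that were higher were *myf5*, *myod1*, *myog* and *smyhc2* (log2 fold changes 0.97, 0.42, 0.16 and 0.12). The median log2 fold change of the 18 markers was -1.42. Summed, these markers held 7128 to 7221 CPM in mutant libraries, against 16309 to 16626 CPM in wildtype libraries. The myoblast receptor genes *jam2a* and *jam3b*, also members, did not pass the test (log2 fold changes -0.03 and -0.05). Whether *cx39.9* fell with the muscle transcripts as a group was not tested.

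Of the 3 lens connexins tested, 2 were lower in the mutants and *gja3* did not pass the test. *cx44.1* (*gja8b*), a lens fibre connexin, had 2.37, 1.81 and 2.30 CPM in mutant libraries, against 6.32, 5.69 and 6.15 CPM in wildtype libraries. The genotypes were far apart, and the log2 fold change was -1.48 (SE 0.13, edgeR adjusted p = 3.90e-11). *cx23* (*gje1a*), also a zebrafish lens connexin, was at 0.978, 0.818 and 1.52 CPM in mutant libraries, against 2.30, 2.07 and 1.28 CPM in wildtype libraries. Here the genotypes overlapped, because mutant replicate 3 lay above wildtype replicate 3. The log2 fold change was -0.74 (SE 0.24, edgeR adjusted p = 0.00732); it was -1.10 without mutant replicate 3, and the call was lost without mutant replicate 2 or wildtype replicate 1 (edgeR adjusted p = 0.0586 and 0.0698). *gja3*, known in mammals from lens fibres, had a log2 fold change of -0.68 that did not pass the test (adjusted p = 0.0714, edgeR), although its mutant libraries (0.360, 0.345 and 0.439 CPM) were all below its wildtype libraries (0.683, 0.617 and 0.564 CPM). The lens copy *cx50.5* (*gja8a*) was below the expression filter, with 3 to 11 counts per library. Of the 6 lens markers tested, 5 were lower, where 33.6% of all tested genes were lower at an adjusted p under 0.05. Their median log2 fold change was -1.06. The summed level of all 8 lens markers in the table was 18.1 to 20.8 CPM in mutant libraries, against 35.6 to 39.2 CPM in wildtype libraries. The lens transcription factor gene *foxe3*, at 0.05, did not pass the test. Whether the lens connexins fell with the other lens transcripts as a group was not tested.

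*cx55.5* (*gja9a*) and *cx52.9* (*gja9b*) are related connexins that zebrafish use in retinal horizontal cells, which form later than 18hpf. *cx55.5* was at 0.360, 0.215 and 0.203 CPM in mutant libraries, against 0.982, 1.10 and 0.872 CPM in wildtype libraries. It rests on 5 to 7 counts per mutant library and 17 to 25 per wildtype library, and the ranges are separate. Its log2 fold change was -1.97 (SE 0.33, edgeR adjusted p = 8.01e-06), and dropping any 1 library gave -2.22 to -1.79. *cx52.9* had 1.67 ± 0.0863 CPM in mutants and 2.64 ± 0.189 CPM in wildtype (SD, n = 3 each), and its libraries were separate by genotype. It changed in the same direction by less, with -0.66 (SE 0.16, edgeR adjusted p = 0.000814).

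*cx43* (*gja1b*), whose mutation shortens the fin segments of zebrafish, and *cx30.3* (*gjb8*) were the well-counted connexins that fell. *cx43* stood at 35.4, 37.8 and 35.0 CPM in mutant libraries, against 67.9, 68.5 and 64.4 CPM in wildtype libraries. *cx30.3* stood at 42.6, 41.1 and 41.1 CPM in mutant libraries, against 78.1, 79.0 and 78.1 CPM in wildtype libraries. In each gene the libraries of a genotype were close together and the genotypes far apart. The log2 fold changes were -0.90 for *cx43* (SE 0.04, edgeR adjusted p = 8.06e-18) and -0.92 for *cx30.3* (SE 0.03, edgeR adjusted p = 1.72e-19), the smallest SE among the connexins that fell, and both stayed under 2-fold. Dropping any 1 library gave -0.93 to -0.87 for *cx43* and -0.93 to -0.91 for *cx30.3*.

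The single connexin that rose was *cx43.4* (*gjc4b*), which is broadly expressed in early zebrafish embryos and acts in Kupffer's vesicle, the left-right organiser. It had 793, 796 and 779 CPM in mutant libraries, against 686, 698 and 696 CPM in wildtype libraries. The groups were separate, with a log2 fold change of 0.19 (SE 0.02, edgeR adjusted p = 5.36e-09), or 1.14-fold. *cx44.2*, a related gene listed by RefSeq as *gjc4a.1*, had 13.2 ± 0.195 CPM in mutants and 12.5 ± 0.846 CPM in wildtype (SD, n = 3 each), and its log2 fold change of 0.08 did not pass the test (adjusted p = 0.316, edgeR).

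**Figure D3:**
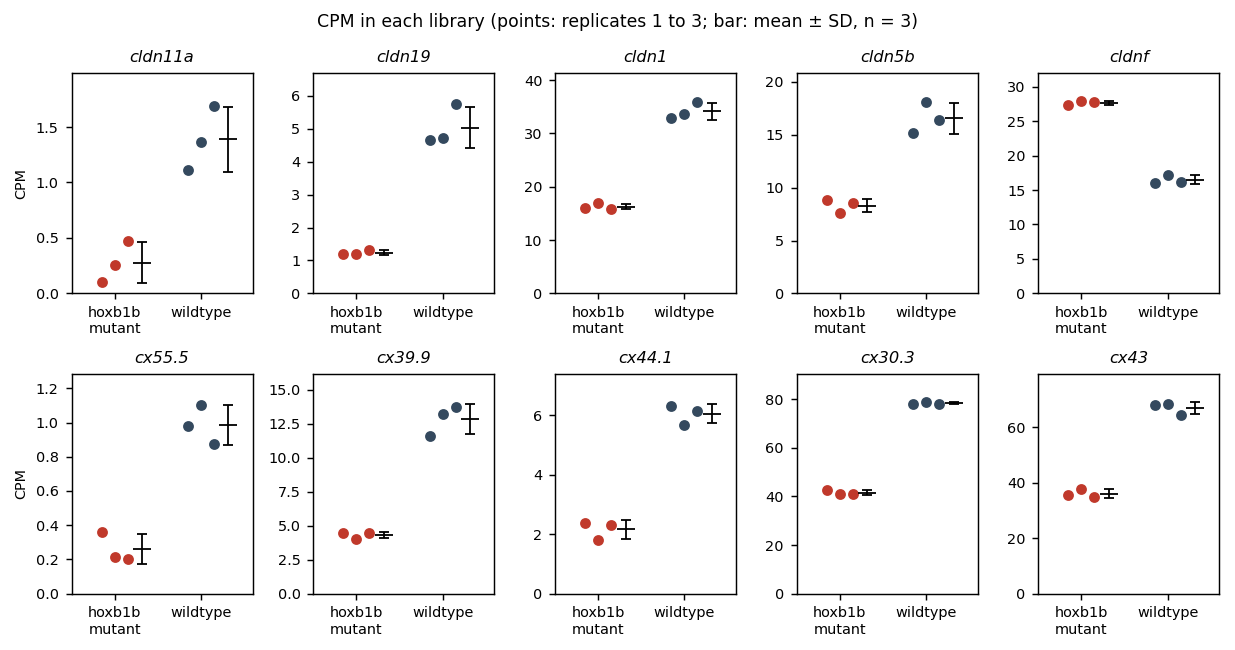
CPM (y axes, each from 0) of 10 members in the 3 hoxb1b mutant libraries (red, left) and the 3 wildtype libraries (dark, right), with the mean ± SD beside the points. The 10 genes were chosen for their changes, and all have separate genotypes, with cldnf higher in the mutants and the other 9 lower. Genotypes were separate for 58.9% of the tested members and 68.1% of all tested genes.

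The remaining connexins were not resolved. *cx36.7* (*gjd6*), required for the zebrafish heart, had 9 to 15 counts per mutant library and 6 to 19 per wildtype library (log2 fold change -0.06, standard error 0.35), and the pigment pattern gene *cx39.4* (*gja4*) had 2 to 12 and 6 to 13. *cx28.6*, *cx30.9*, *cx34.4*, *cx35.4* and *cx45.6* had log2 fold changes between -0.22 and 0.12, with adjusted p between 0.259 and 0.885 (edgeR). Below the filter were *cx27.5*, *cx28.8*, *cx32.2*, *cx35b*, *cx41.8* and *cx50.5*, with at most 15 counts in any library, and they were not part of the test. *cx28.8* (*gjb7*) had 1, 7 and 3 counts in mutant libraries, against 15, 8 and 7 counts in wildtype libraries, a separation of the genotypes at low counts, and it was called lower when no filter was applied (log2 fold change -1.54, adjusted p = 0.0129, edgeR).

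Zebrafish keep both copies of several junction genes from the genome duplication of teleost fishes, the group that includes zebrafish, or from later duplications. Among the tight junction genes, 8 such pairs had both copies tested. Connexin copies, such as *cx55.5* and *cx52.9*, were not compared in this way. The log2 ratio of the second copy to the first was compared between genotypes with a two-sided exact permutation test over the 6 libraries, whose smallest p is 0.1. In *cldn5b* over *cldn5a* the log2 ratio was -3.38, -3.59 and -3.46 in mutant libraries, against -2.29, -2.17 and -2.24 in wildtype libraries. This is a difference of -1.24 (exact p = 0.1, 0.16 after Benjamini-Hochberg adjustment over 8 pairs), and the copies had changed in opposite directions. *cldn11b* over *cldn11a* differed by 2.55 and *f11r.2* over *f11r.1* by -0.88, again with separate genotypes (exact p = 0.1 each, 0.16 adjusted). *jam2b* over *jam2a* differed by -0.24 and *cldn15b* over *cldn15a* by -0.25, also at the smallest p. By contrast, *oclnb* over *oclna* differed by 0.01 (exact p = 0.8) and *tjp2b* over *tjp2a* by -0.01 (exact p = 1), with overlapping libraries. *cldnd1b* over *cldnd1a* differed by 1.79 (exact p = 1), a value set by the wildtype library without *cldnd1b* reads. With 3 libraries per genotype this test cannot fall below 0.05, so only the separation of libraries is given. As single genes, 68.1% of all tested genes had separate genotypes, and the share for ratios of other gene pairs was not counted.

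**Figure D4:**
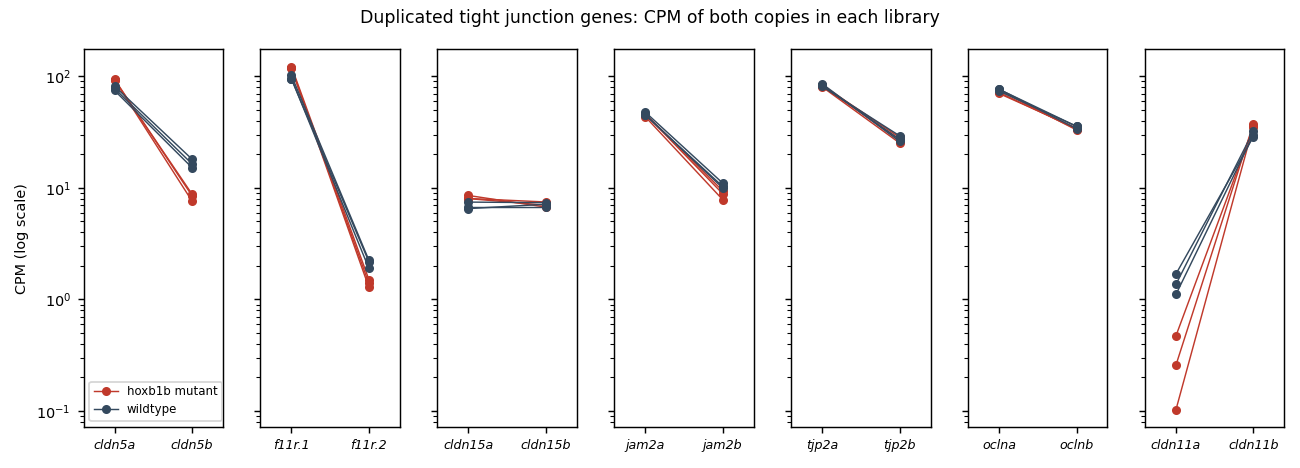
CPM on a log scale (y axis) of the first and second copy (x axis) of 7 duplicated tight junction genes, with a line per library for hoxb1b mutants (red) and wildtype (dark). The mutant lines part from the wildtype lines at cldn5b, f11r.2 and cldn11a, and run together at oclna, oclnb, tjp2a and tjp2b.

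Markers of other tissues were set beside the members known from them. For comparison with the counts below, 33.6% of all tested genes were lower and 32.6% higher at an adjusted p under 0.05. Of the 8 endothelial markers tested, 4 were lower (*pecam1* by more than 2-fold), 1 was higher and 3 did not pass the test, and their summed level was 188 to 198 CPM in mutant libraries, against 194 to 201 CPM in wildtype libraries. *cldn5b*, at -0.99, thus lay below the marker median of -0.17, while the sums overlap. *etv2*, the marker that rose, weighs most in these sums. It had 73.7 ± 2.43 CPM in mutants and 53.5 ± 1.44 CPM in wildtype (SD, n = 3 each). The 4 that fell were *pecam1*, *cdh5*, *kdrl* and *esama* (log2 fold changes -2.10, -0.61, -0.39 and -0.34). Of the 21 epidermal markers tested, 12 were higher and 8 lower, with a median log2 fold change of 0.20. Their sum was 42731 to 43549 CPM in mutant libraries, against 44513 to 45169 CPM in wildtype libraries. The epidermal claudins *cldnb* (0.10) and *cldne* (-0.08) lay within that spread of directions. *cldn1*, named after the mammalian claudin of the skin barrier, lay at -1.06, below all of these markers except *krtt1c19e* (-2.45). Of the 9 heart markers tested, 6 were lower and 3 did not pass the test, with a median of -0.19 and a summed level of 112 to 113 CPM in mutant libraries, against 143 to 144 CPM in wildtype libraries. The heart connexin *cx36.7* was not resolved. No member was set beside the other 4 marker lists. Of the 11 neuronal markers tested, 9 were lower and 2 did not pass the test, with a median of -0.79 and a sum of 523 to 526 CPM in mutant libraries, against 654 to 661 CPM in wildtype libraries. Of the 7 hatching gland markers, 6 were lower and 1 higher, with a median of -0.19 and a sum of 3849 to 3956 CPM in mutant libraries, against 4947 to 5072 CPM in wildtype libraries. Notochord markers (10 tested, 3 lower and 5 higher) and markers of pronephros and gut (9 tested, 3 lower and 4 higher) moved in both directions, and their sums were also lower. For notochord these were 2118 to 2182 CPM in mutant libraries, against 2584 to 2612 CPM in wildtype libraries. For pronephros and gut (all 11 markers in the table) they were 409 to 410 CPM in mutant libraries, against 477 to 485 CPM in wildtype libraries. Single genes weigh heavily in both sums. The notochord marker *col2a1a* had 1011 ± 23.5 CPM in mutants and 1478 ± 10.3 CPM in wildtype (SD, n = 3 each). *atp1a1a.4*, of pronephros and gut, had 106 ± 2.78 CPM in mutants and 179 ± 0.116 CPM in wildtype (SD, n = 3 each). The part of these tissues in the members' changes was not tested.

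**Figure D5:**
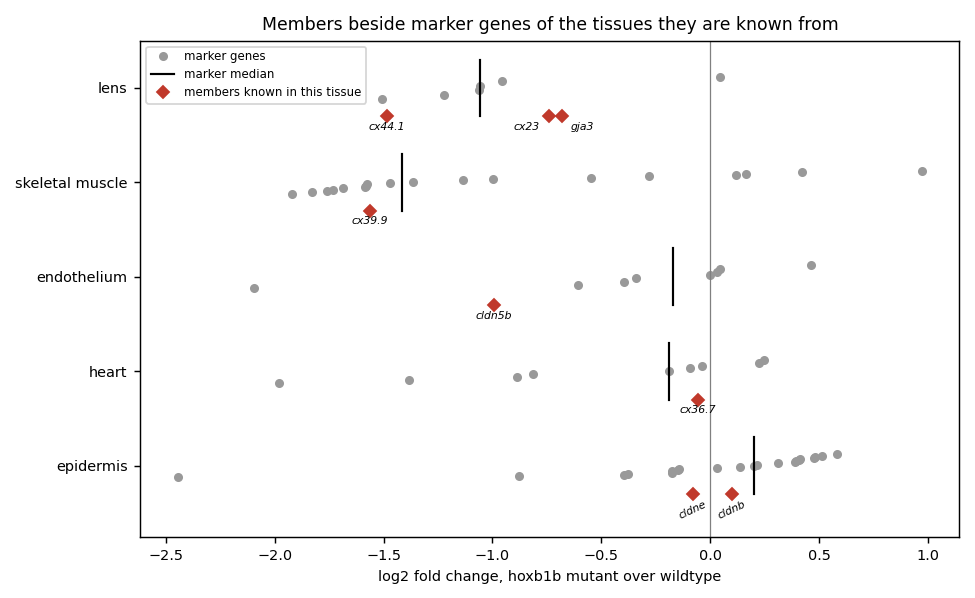
Log2 fold change of mutant over wildtype (x axis) of marker genes (grey points, black bar at their median) and of members known from the same tissue (red diamonds), by tissue (y axis). The lens members and cx39.9, the muscle member drawn, lie among markers that are mostly lower. cldn5b lies below most endothelial markers, and cldnb and cldne lie among epidermal markers of both directions. The members cldn1, jam2a and jam3b are not drawn.

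Other genes of the tight junction and its polarity complexes were counted from a separate list, of which 27 were tested. Of these, 9 were higher and 6 lower, where 32.6% of all tested genes were higher and 33.6% lower. The other 12 did not pass the test, and the median log2 fold change of the list was 0.05. *lin7a*, which encodes a small scaffold of the Crumbs complex, was the single one beyond 2-fold, with 1.05 ± 0.462 CPM in mutants and 3.87 ± 0.470 CPM in wildtype (SD, n = 3 each) and a log2 fold change of -1.97 (adjusted p = 2.28e-09, edgeR). The largest rise was that of *pard6a*, a subunit of the apical Par complex, with 0.62. The scaffolds *magi1b* and *mpp5a* and the kinase gene *prkci*, all at high counts, lay between -0.03 and 0.02. Among the 5 tested genes for other large-pore channels and their partners, the pannexin *panx1a* rose by 0.54 and its copy *panx1b* changed by -0.97 (adjusted p = 6.61e-13 and 0.000307, edgeR). *panx1a* had 54.7 ± 0.914 CPM in mutants and 37.6 ± 1.28 CPM in wildtype (SD, n = 3 each). *calhm2* was the single one beyond 2-fold, at -2.40 with 0.168 ± 0.0384 CPM in mutants and 0.910 ± 0.212 CPM in wildtype (SD, n = 3 each).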

How the data were processed

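Per the labels, RNA-seq libraries (stranded, polyadenylated RNA) were made from whole *hoxb1b* mutant and wildtype embryos at 18hpf. The authors deposited estimated counts per gene and library, not normalized, after processing through the Dolphin web interface; the submitters' processing notes name RSEM 1.2.28, FastQC and DESeq2 and the builds GRCz10 and danRer7, without roles. The table also holds the authors' own adjusted p-values and fold changes, which were not used. Columns were matched to libraries by the names in the labels, and 0 columns belong to other samples.

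After rounding of the deposited estimated counts, genes were tested with edgeR 4.0.16 under R 4.3.3 (filterByExpr, TMM, glmQLFit and glmQLFTest, genotype as the only factor), with Benjamini-Hochberg adjustment over 12471 genes. A change was called at an adjusted p under 0.05, and in a stricter count also above 2-fold, the fold limit given in the study's methods. The standard error is the size of the log2 fold change divided by the square root of F. Between libraries of a genotype the estimated coefficient of variation beyond counting noise was 1.85%. Names of 39 members matched RefSeq symbols and 26 matched synonyms. Paralog ratios used a pseudocount of 0.05 CPM.

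Members, lists and tests were chosen with earlier results of these data known. Full values are given for members called beyond 2-fold, for those with an absolute log2 fold change of 0.8 to 1, and, in each protein group, for the member with the highest CPM and those with the largest rise and fall; other members are named by role, and *cldnd1b*, *cx23*, *gja3*, *cx52.9*, *cldng*, *cldnc*, *cldn5a* and *cldn15a* were given in full after their values were seen. Alternatives were other scalings, DESeq2 1.42.0, other filters (none, or at least 10 counts in every library), unrounded counts, a replicate block, other fold limits and leaving out each library. The fit was tested on simulated data, but no result of that is given here, so no statement rests on it. Python 3.11.15, pandas 2.3.3 and matplotlib 3.10.9 were used for names and figures. Protein and promoter sequences were not analysed here.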

Additional observations from a re-analysis of the deposited data

How the results depend on the processing

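The 6 members called beyond 2-fold stayed called under each alternative that tested them, except *cldn1* under glmTreat. With at least 10 counts in every library, *cldn11a* and *cx55.5* were not tested, *cldn5b* was gained and 5 members were called. With a limit of 1.5-fold, 14 members were called, 13 lower and 1 higher. At an adjusted p under 0.05 alone, the number of members was 25 with DESeq2 and 29 to 32 in the other settings, against 30; with total count scaling 17 were lower and 14 higher. Single-member values under the alternatives were compared for the 30 members already called, so a gained call could not be counted among them. Of these values, 404 kept their direction and their side of the threshold, 14 lost the call and 0 reversed. The 14 belong to *cldne*, *jam2b*, *marveld1*, *cx23*, *cldn15a* and *f11r.2* (adjusted p = 0.0508 with DESeq2).

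Same-numbered libraries did not deviate together (correlations of 0.06, 0.04 and -0.03), so the replicate numbers are not taken to pair them. These numbers follow the sample titles, while the deposited columns are named Mut2 to Mut4 and WT1 to WT3. By column number, mutant replicate 1 with wildtype replicate 2 had a correlation of -0.10, and mutant replicate 2 with wildtype replicate 3 of -0.01. A block by column number was not fitted. With the replicate number as a block, 6 members were called beyond 2-fold and 30 at an adjusted p under 0.05 (19 lower and 11 higher), as without the block. Depth limits the 18 members with a mean under 1 CPM.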

Other observations

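Cell contacts of another kind, the adherens junctions, were read from a separate list of which 11 genes were tested. Of these, 6 were higher and 4 lower, where 32.6% of all tested genes were higher and 33.6% lower, and 1 did not pass the test. *cdh1*, the E-cadherin gene of epithelia, had 293 ± 0.854 CPM in mutants and 223 ± 3.06 CPM in wildtype (SD, n = 3 each), which is 0.39 higher on the log2 scale. The largest rise of the list was that of *pvrl1a* (0.63, edgeR adjusted p = 0.0044). The N-cadherin gene *cdh2* rose by 0.16 and the catenin genes *ctnna1* and *jupa* by 0.38 and 0.19. The neural catenin gene *ctnna2* (log2 fold change -1.33) and the vinculin gene *vcla* (-1.15) were lower by more than 2-fold (adjusted p = 1.55e-12 and 1.30e-16, edgeR). Of all tested genes, 6.66% were lower by more than 2-fold. *plekha7a*, at -0.98, stayed under 2-fold.

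Transcription factor genes of epithelia and epidermis were mostly higher. Of the 12 tested, 9 were higher, where 32.6% of all tested genes were higher, and 3 did not pass the test. Of these 12 genes, 0 changed by more than 2-fold. The median of their log2 fold changes was 0.21, where that of all tested genes was -0.0034. The largest rises were those of *klf17* (0.58), *foxi3a* (0.55) and *tfap2c* (0.53), while *klf4* and *grhl2b* lay at -0.05 and 0.03. This list shares *klf17* with the hatching gland markers and *tp63* and *grhl1* with the epidermal markers, so those genes are counted in both places.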
